A study of Mus musculus with 4 samples.

Results

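The 6 genes described here are Bach2os, Bach2, Gm43352, Lef1, Tcf7 and Ccr7, taken by name from the 50600 genes listed in the deposited tables. Bach2, Lef1, Tcf7 and Ccr7 encode factors and a receptor that mark naive T cells, and Bach2os and Gm43352 are annotated antisense genes whose exons lie opposite exons of Bach2 and Lef1. The samples were 4 libraries of mouse T-helper 2 (Th2) cells, CD4 T cells differentiated in culture to the subset that makes interleukin 4. All were primary cells of strain C57BL/6NJ with no transgene or treatment named, the sex was not collected, the age was given as unknown, and all carried the same donor identifier. They form 1 group of 4 numbered biological replicates, so values were compared between genes within a library and between libraries, with no other condition. A time of 16 hours appears in file names within the headers and nowhere in the labels.

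Naive T cells are held in a quiescent, lymph-node-homing state by a small set of regulators. TCF-1, encoded by Tcf7, and LEF-1, encoded by Lef1, are related HMG-box DNA-binding proteins that pair with beta-catenin or with Groucho/TLE corepressors. BACH2 is a BTB and leucine zipper repressor that binds DNA with small MAF proteins and restrains effector programs, the Th2 program among them. CCR7 is the chemokine receptor that guides naive T cells to lymph nodes along the ligands CCL19 and CCL21. Activation and effector differentiation are known to lower the expression of these genes.

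Library totals ran from 1688658 to 2222583 counts, so a gene with a count of 0 could lie at up to 1.35 to 1.78 CPM, the count scaled to the library total, taking 3 counts as the limit. Intervals and this limit cover counting error only. They hold for RNA on the counted strand, and whether that was the strand of the gene was not tested. All 11 T cell markers had counts in all 4 libraries, as did 4 of 7 Th2 markers, Gata3 and Il4 among them, while Il5, Il13 and Il1rl1 had none. Of all protein-coding genes, 39% had counts in all 4. The T cell markers Cd247 and Cd3e and the Th2 markers Ptgdr2, Gata3 and Il5 have an opposite exon. Cd247 had 1023 to 1261 counts and Ptgdr2 had 173 to 215, the most of their lists. Gata3 had 17 to 21 counts, and Gm13256 opposite it had 834 to 1155. B cell markers matter here because B cells also use Bach2 and Ccr7: 3 of 7 had counts in all 4 libraries, their summed level ran from 11 to 16.6 TPM, the count per exon length scaled to the library, and Cd79b, Ms4a1 and Pax5 were at 0. Of 7 dendritic cell and macrophage markers, 4 were at 0 in all libraries and the summed level ran from 134 to 164 TPM, nearly all of it Csf1r, which has an opposite exon, and from 0.302 to 0.918 TPM without Csf1r. Of 4 CD8 markers, Cd8a, Gzmb and Prf1 were at 0 and the summed level ran from 1.73 to 6.44 TPM. The part of other cell types in the members' levels was not tested. In such bulk samples fewer cells of a type and less RNA per cell cannot be told apart. Reads were counted on 1 strand (option 1 in the headers), and genes with an exon opposite held 91.8 ± 1.35% of the counts (SD, n = 4). The sources used here do not name the strand chemistry of the kit. Whether a count for an antisense gene stands for its own RNA or for RNA of the gene opposite was therefore not tested, and this holds for every level below. As an alternative chosen after seeing the data, the strand was turned by giving each gene of a pair the counts of the other over its own length. Counts made on the other strand would also cover exons that the partner does not reach, so these values are no recount.

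Bach2os (chromosome 4, 32559680 to 32571708, minus strand, build mm10) lies wholly inside Bach2 (chromosome 4, 32238804 to 32586108, plus strand), near its end. Of its 5 exons, 2 reach into a single Bach2 exon of 1590 bases, by 232 and 305 bases, 537 bases in all. All 537 are coding bases of Bach2, and the other 1646 exon bases of Bach2os lie opposite Bach2 introns. Both edges of the overlap are printed here on the Bach2 strand because they mark where the exons share positions. Capitals mark the bases opposite a Bach2os exon and lower case the bases of the same exon that have none.
Bach2 at chr4:32561778-32562069, plus strand: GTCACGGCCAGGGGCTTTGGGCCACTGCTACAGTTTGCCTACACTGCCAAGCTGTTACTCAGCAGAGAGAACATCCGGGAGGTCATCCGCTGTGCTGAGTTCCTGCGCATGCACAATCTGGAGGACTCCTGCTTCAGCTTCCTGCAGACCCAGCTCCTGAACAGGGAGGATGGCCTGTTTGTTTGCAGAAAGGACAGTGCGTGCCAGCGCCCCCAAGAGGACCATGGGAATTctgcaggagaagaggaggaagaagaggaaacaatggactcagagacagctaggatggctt
Bach2 at chr4:32563003-32563152, plus strand: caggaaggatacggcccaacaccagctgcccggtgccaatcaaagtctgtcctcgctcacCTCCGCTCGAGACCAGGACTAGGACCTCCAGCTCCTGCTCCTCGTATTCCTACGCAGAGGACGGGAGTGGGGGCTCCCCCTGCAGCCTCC

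Gm43352 (chromosome 3, 131109026 to 131112090, minus strand) is a single exon of 3065 bases that covers the start of Lef1 (chromosome 3, 131110471 to 131224356, plus strand). It lies opposite the whole first exon of Lef1, 1208 bases, of which 1001 are untranslated and 207 coding. A further 1445 bases of Gm43352 lie upstream of the annotated Lef1 start, and 412 lie opposite the first intron. The promoter windows of 300 bases around the 2 upstream RefSeq starts of Lef1 (build GRCm38.p6) also fall inside the Gm43352 exon. The coding bases of the overlap open the Lef1 protein and are shown on the Lef1 strand, with the start codon in capitals. Every base of this stretch lies opposite Gm43352.
Lef1 at chr3:131111472-131111678, plus strand: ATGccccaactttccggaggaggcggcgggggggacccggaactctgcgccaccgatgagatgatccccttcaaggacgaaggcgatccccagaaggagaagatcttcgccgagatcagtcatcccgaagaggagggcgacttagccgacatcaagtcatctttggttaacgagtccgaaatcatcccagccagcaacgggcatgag

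**Figure D1:**
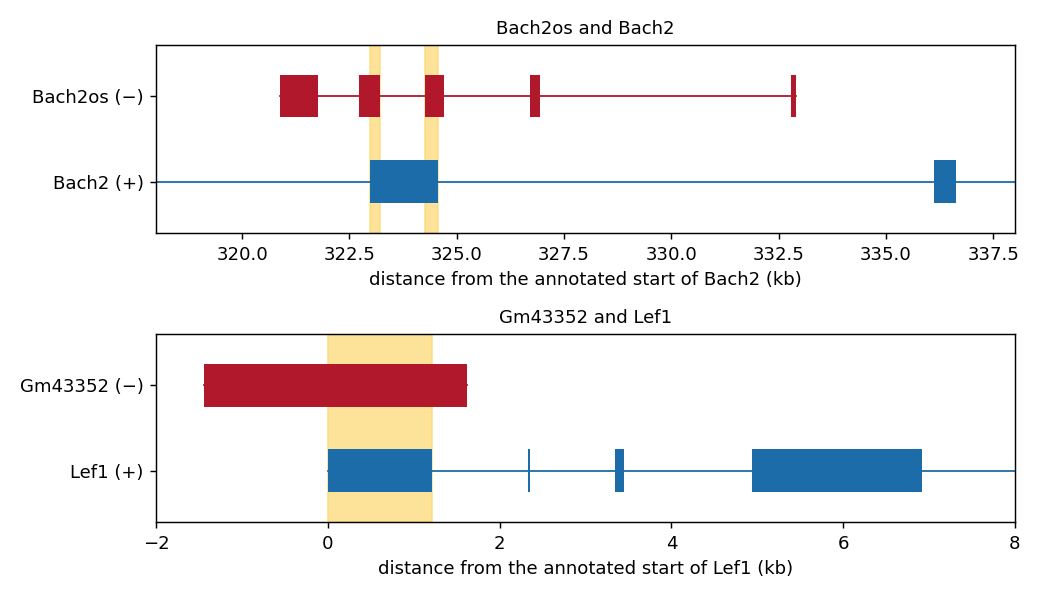
Exons (boxes) and introns (lines) of Bach2os above Bach2 (top) and of Gm43352 above Lef1 (bottom), by distance in kilobases from the annotated start of the plus-strand gene, with overlapping exon bases shaded. A Bach2os exon meets each end of a single Bach2 exon, by 537 bases in all, whereas Gm43352 covers the first exon of Lef1, 1208 bases, and its upstream side.

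At the Bach2 locus nearly all counts were assigned to the antisense gene on the strand that was counted. Bach2os had 2256, 2243, 3338 and 2855 counts in replicates 1 to 4, while Bach2, the repressor gene itself, had 46, 52, 42 and 78. Bach2os was above Bach2 in every library and the values do not overlap. Among the 1542 pairs of this kind described below, the noncoding gene was higher per kilobase in all 4 libraries in 82.7%. Bach2os held 98% of the counts of the pair in replicate 1 (95% Clopper-Pearson interval 97.3 to 98.5). Its share was 97.7% (97 to 98.3) in the second library, 98.8% (98.3 to 99.1) in replicate 3 and, the lowest, 97.3% (96.7 to 97.9) in replicate 4. The share was highest in replicate 3 and lowest in replicate 4. Per kilobase of exon, the ratio of Bach2os to Bach2 was 223, 196, 362 and 167 in replicates 1 to 4. The mean log2 ratio per kilobase was 7.81 ± 0.48 (SD, n = 4), with an exact two-sided sign-flip p of 2/16, the smallest that 4 libraries allow, so no within-library comparison could pass 0.05. With the strand turned, the shares would be those of Bach2 and the log2 ratio of Bach2os to Bach2 was -3.44.

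At the Lef1 locus the antisense gene was again higher, but by less. Gm43352 had 513, 499, 556 and 595 counts in replicates 1 to 4, and Lef1, the HMG-box factor gene, had 87, 77, 92 and 109. The highest Lef1 value was below the lowest Gm43352 value. Here too, the noncoding gene was higher per kilobase in all 4 libraries in 82.7% of pairs of this kind. The share of the pair's counts held by Gm43352 was 85.5, 86.6, 85.8 and 84.5% in replicates 1 to 4. It was highest in replicate 2 (95% Clopper-Pearson interval 83.6 to 89.3) and lowest in replicate 4 (81.6 to 87.1), and these intervals overlap. Per kilobase, the ratio of Gm43352 to Lef1 was 16.9, 18.6, 17.3 and 15.7 in replicates 1 to 4. The mean log2 ratio was 4.09 ± 0.10 (SD, n = 4; exact two-sided sign-flip p = 2/16), and -1.05 with the strand turned.

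The pairs differed from each other in every library. The log2 ratio of Bach2os to Bach2 exceeded that of Gm43352 to Lef1 by 3.71, 3.40, 4.37 and 3.41 in replicates 1 to 4. The mean difference was 3.72 ± 0.46 (SD, n = 4; exact two-sided sign-flip p = 2/16), which is 13.2-fold on the linear scale. It was largest in replicate 3, where Bach2 was lowest. Without length scaling the log2 ratios were 5.62 at the Bach2 locus and 2.57 at the Lef1 locus.

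**Figure D2:**
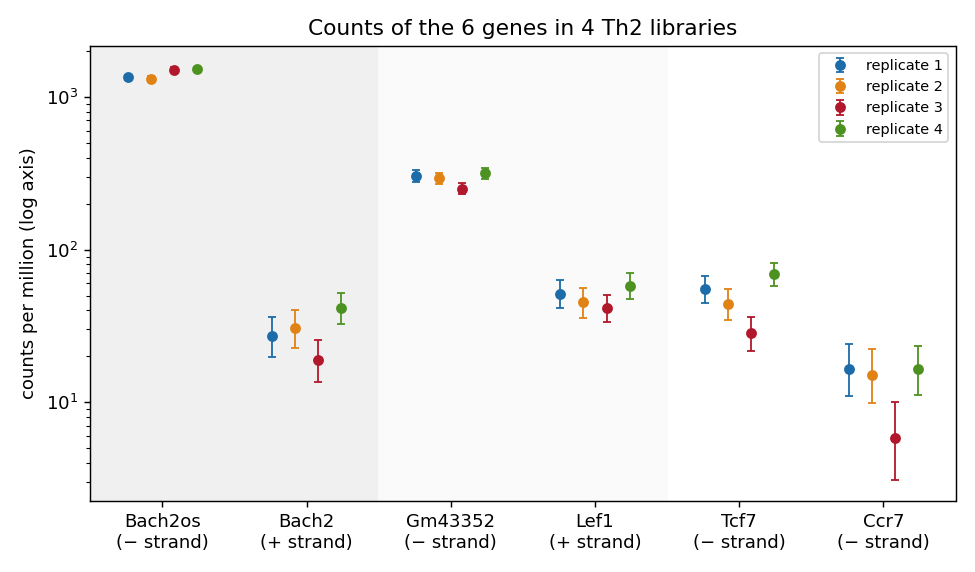
CPM on a log axis for the 6 genes in replicates 1 to 4 (points), with exact 95% Poisson intervals for counting error. Bach2os lies between 1315 and 1518 CPM and Gm43352 between 250 and 316 CPM, while the 4 protein-coding genes lie between 5.85 and 69.1 CPM.

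Tcf7 (chromosome 11, 52252371 to 52283014, minus strand) has no exon on the other strand. It had 93, 75, 63 and 130 counts in replicates 1 to 4, or 30.3, 24.8, 16.1 and 38.6 TPM. By TPM it was the highest of the 4 protein-coding genes in each library, with replicate 4 highest and replicate 3 lowest, but Lef1, a longer gene, had more counts than Tcf7 in replicates 2 and 3. An antisense gene, A630014C17Rik (chromosome 11, 52276055 to 52286179, plus strand), crosses the start of Tcf7 without meeting a Tcf7 exon, and was chosen after its values were seen. Its first exon of 387 bases lies in a Tcf7 intron and its second, of 2597 bases, begins 569 bases beyond the Tcf7 start. A630014C17Rik had 31, 36, 73 and 51 counts in replicates 1 to 4. Per kilobase its log2 ratio to Tcf7 was -1.75, -1.23, 0.03 and -1.53, so here the protein-coding gene was the higher in 3 of 4 libraries and level with the antisense gene in replicate 3. The mean was -1.12 ± 0.79 (SD, n = 4; exact two-sided sign-flip p = 0.25), against 7.81 and 4.09 for the pairs whose exons overlap.

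Ccr7 (chromosome 11, 99144196 to 99155077, minus strand), the lymph node homing receptor gene, has no gene opposite. It had 28, 26, 13 and 31 counts in replicates 1 to 4, or 12.1, 11.4, 4.4 and 12.2 TPM. Replicates 1, 2 and 4 were close and replicate 3 stood below them. The exact 95% Poisson interval for counting error was 3.11 to 10 CPM in replicate 3. It met that of replicate 2, 9.96 to 22.3 CPM, but not those of replicate 1, 11 to 24 CPM, and replicate 4, 11.2 to 23.4 CPM.

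By level per length, Bach2os came first at 955 ± 76.8 TPM (SD, n = 4), followed by Gm43352 at 139 ± 12.7 TPM and Tcf7 at 27.5 ± 9.48 TPM (SD, n = 4). Ccr7 at 10 ± 3.78 TPM, Lef1 at 8.19 ± 1.16 TPM and Bach2 at 4.36 ± 1.37 TPM came next (SD, n = 4). On the log2(TPM + 1) scale, Bach2os exceeded Gm43352 by 2.77 ± 0.20, Gm43352 exceeded Tcf7 by 2.36 ± 0.38 and Tcf7 exceeded Ccr7 by 1.39 ± 0.28, each in 4 of 4 libraries (SD, n = 4). Lef1 exceeded Bach2 by 0.80 ± 0.23, also in 4 of 4 (SD, n = 4). Ccr7 and Lef1 did not differ beyond their spread: the difference was 0.18 ± 0.51 (SD, n = 4), with Lef1 above Ccr7 in replicate 3. Over the 5 neighbour comparisons the exact two-sided sign-flip p was 2/16, adjusted to 0.156, except for Ccr7 and Lef1 at 0.625. Without replicate 3 the difference between Ccr7 and Lef1 was 0.44. Among 21764 protein-coding genes, Tcf7 ranked 1001, Ccr7 1846, Lef1 2120 and Bach2 3068 by mean TPM on the counted strand. Among 2566 genes annotated as antisense, Bach2os ranked 89 and Gm43352 357 on that strand. The order depends on the strand: over the Bach2 length the counts of Bach2os came to 227, 226, 336 and 287 per kilobase in replicates 1 to 4, and over the Lef1 length those of Gm43352 came to 58.4, 56.8, 63.3 and 67.7. These are above the 35.4, 28.6, 24 and 49.5 counts per kilobase of Tcf7 as counted, and for Tcf7 and Ccr7, which have no exon opposite, no turned value can be had from the tables.

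For none of the 6 genes did the variation between replicates pass the test against genes of like abundance. The power of the test at these counts is not given here, so a gene that did not pass is not shown to be stable. All 6 entered edgeR's quasi-likelihood test of variation, in which 22 of 4918 genes passed an adjusted p of 0.05, or 0.447%, and 0 of the 6 did. None of the 6 reached an unadjusted p under 0.05 either, compared with 5.71% of all tested genes, and limma called 0 of the 6. Tcf7 had the smallest edgeR p, 0.0718, adjusted to 0.91, and Ccr7 had an edgeR p of 0.139, adjusted to 0.961. The edgeR-adjusted p was 0.991 for Bach2, 0.988 for Bach2os, 0.997 for Lef1 and 0.998 for Gm43352.

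The 4 protein-coding genes were each lowest in replicate 3. Bach2 was at 27.2, 30.5, 18.9 and 41.5 CPM in replicates 1 to 4 and Tcf7 at 55.1, 44, 28.3 and 69.1 CPM, both highest in replicate 4. Lef1 was at 51.5, 45.2, 41.4 and 57.9 CPM. Gm43352 was also lowest in replicate 3, at 304, 293, 250 and 316 CPM, whereas Bach2os was at 1336, 1315, 1502 and 1518 CPM, lowest in replicates 1 and 2. The highest library exceeded the lowest 2.83-fold for Ccr7, 2.44-fold for Tcf7, 2.19-fold for Bach2, 1.4-fold for Lef1, 1.26-fold for Gm43352 and 1.15-fold for Bach2os.

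The same libraries stood at the ends for the class of all 14386 protein-coding nuclear genes with no gene opposite. Their summed level was 60950, 56752, 45003 and 74585 CPM in replicates 1 to 4, a 1.66-fold range. CT010467.1, a ribosomal RNA gene, held 1.29, 5.05, 9.4 and 1.62% of the counts in replicates 1 to 4. The part of these shifts in the members' values was not tested. Per 100000 counts of that class, an alternative chosen after seeing the data, the range narrowed to 1.32-fold for Bach2, 1.47-fold for Tcf7, 1.18-fold for Lef1 and 2.09-fold for Ccr7. It widened to 1.64-fold for Bach2os and was 1.31-fold for Gm43352. On this scale Lef1 was at 84.5, 79.6, 92 and 77.7 in replicates 1 to 4, with replicate 3 highest, and Ccr7 was at 27.2, 26.9, 13 and 22.1, with replicate 3 still lowest. Tcf7 was at 90.4, 77.5, 63 and 92.6.

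**Figure D3:**
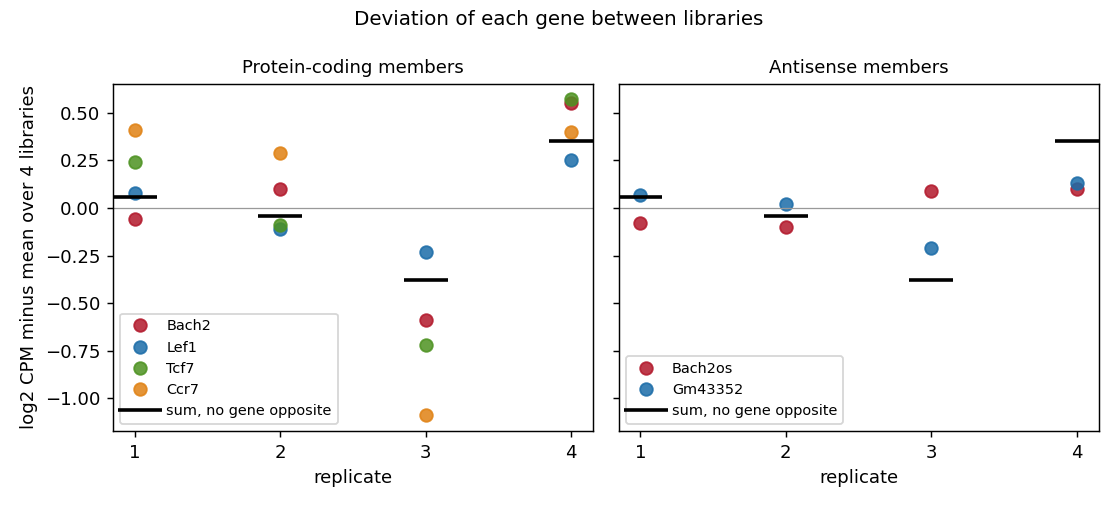
Log2 CPM minus its mean over the 4 libraries for Bach2, Lef1, Tcf7 and Ccr7 (left) and Bach2os and Gm43352 (right), with black bars for the summed protein-coding nuclear genes that have no gene opposite. In replicate 3 the protein-coding genes lie from -0.23 for Lef1 to -1.09 for Ccr7 and the bar at -0.38, while Bach2os lies at 0.09.

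The genes with the most similar pattern over the 4 libraries were named by the distance between centred log2 CPM profiles among 4917 other genes, as a description. For Bach2os they were Gm27206 and Asb5, with 371, 366, 540 and 466 counts and 593, 589, 882 and 734 counts in replicates 1 to 4. For Gm43352 they were Smarcd3, with 815, 789, 882 and 946 counts, and Gm37915. For Bach2 they were Psat1 and Htt, for Lef1 Gm13999 and Cd81, for Tcf7 Pitpna and Tra2b, and for Ccr7 Eef1b2 and Ccdc50. The distances ran from 0.006 for Smarcd3 to 0.067 for Ccdc50, and with only 4 libraries close matches are common.

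Both pairs lay inside the range of other pairs in the same libraries. Exons of a noncoding gene overlapped exons of a protein-coding gene on the other strand in 2394 pairs, of which 1542 had 20 or more counts in all. The noncoding gene was higher per kilobase in all 4 libraries in 82.7% of these pairs. Their median log2 ratio was 5.94, with quartiles of 2.76 and 7.94. Bach2os over Bach2, at 7.81, was above 73.7% of the pairs, and Gm43352 over Lef1, at 4.09, was above 33.5%. With the strand turned in all pairs these shares were 35.3 and 59.1%, around a median log2 ratio of -1.93. By mean TPM, Bach2os ranked 119 and Gm43352 519 among the 1408 noncoding genes of these pairs.

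Few noncoding genes with no gene opposite had counts in every library. Of 2207 noncoding genes with an exon opposite a protein-coding exon, the class of Bach2os and Gm43352, 58% had counts in all 4 libraries, and they held 37.9 ± 0.935% of all counts (SD, n = 4). Of 6413 noncoding genes with no gene opposite, 2.76% had counts in all 4, and they held 0.197 ± 0.0175% (SD, n = 4). The median level of the genes with counts in all 4 libraries was 82.8 TPM in the class with an overlap and 3.02 TPM in the class with no gene opposite. Of 14386 protein-coding nuclear genes with no gene opposite, the class of Ccr7, 30.6% had counts in all 4 libraries. This class held 5.93 ± 1.22% of all counts (SD, n = 4). The median level of its genes with counts in all 4 libraries was 1.86 TPM.

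**Figure D4:**
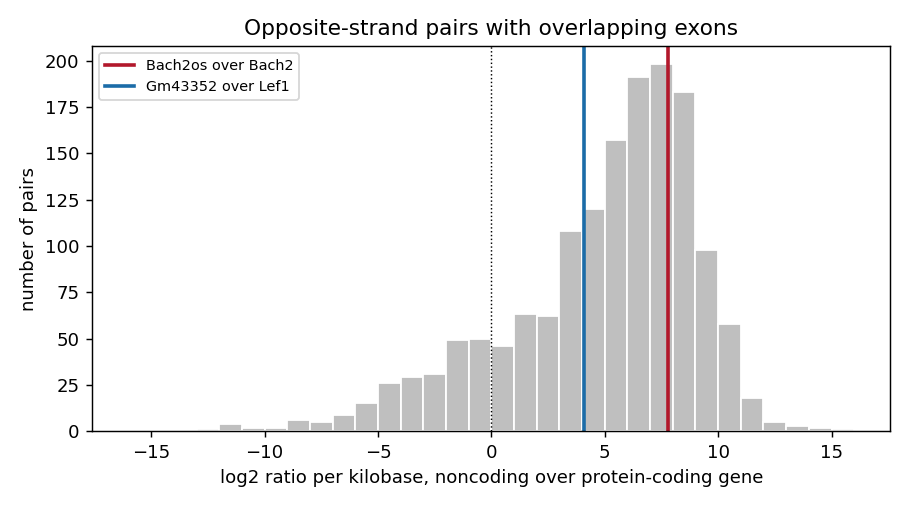
Number of noncoding and protein-coding gene pairs with overlapping exons on opposite strands (1542 pairs) by mean log2 ratio per kilobase, noncoding over protein-coding, in bins of 1. The lines mark Bach2os over Bach2 at 7.81 and Gm43352 over Lef1 at 4.09, on both sides of the median of 5.94.

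Most other genes of the naive program were counted at a few TPM or less. Of 24 listed genes, 17 had counts in all 4 libraries, or 70.8%, compared with 39% of protein-coding genes, and Ly6c1 had none. Their median level was 1.3 TPM, and that of all protein-coding genes was 0.128 TPM. Cd27, a costimulatory receptor gene, was highest at 22.6 ± 2.42 TPM, followed by Slfn2, a quiescence gene, at 19.1 ± 5.86 TPM (SD, n = 4). Dapl1 was at 9.09 ± 4.46 TPM and Satb1, a chromatin organiser gene, at 7.79 ± 1.68 TPM (SD, n = 4). Il7r, the interleukin 7 receptor gene, had 9, 3, 4 and 6 counts in replicates 1 to 4, and Klf2, a quiescence factor gene, had 0, 1, 1 and 2. Both were chosen after their values were seen. Of the 9 list genes in the variation test 0 passed in edgeR.

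In the naive list, 8 of 24 genes had an exon opposite, and in all 8 the partner with the longest overlap was higher per kilobase in all 4 libraries. This is near the share over the 1542 pairs above, where the noncoding gene was higher in all 4 libraries in 82.7%. Foxo1, a factor that drives Klf2 and Il7r, had 16, 6, 7 and 16 counts, and its partner Gm20402 had 554, 403, 674 and 702 in replicates 1 to 4. The log2 ratio per kilobase of Gm20402 over Foxo1 was 9.39 ± 0.62 (SD, n = 4). Bcl2, the survival gene, had 4, 6, 9 and 13 counts, and its partner D630008O14Rik had 447, 481, 557 and 454. Satb1 had the lowest such ratio, 1.33 ± 0.53 for Gm6934 over Satb1 (SD, n = 4). Gm26626 over Runx1, at 9.74 ± 1.15 (SD, n = 4), was the highest of the 8. The ratios of Gm26577 over Myb and of 4930519F09Rik over Themis, at 8.08 and 7.80, depend on the added 0.5 because Myb and Themis had no count in replicate 3. Apart from Satb1, the genes of these pairs were singled out after their values were seen, as were Bach1 and the listed genes named for having no count.

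**Figure D5:**
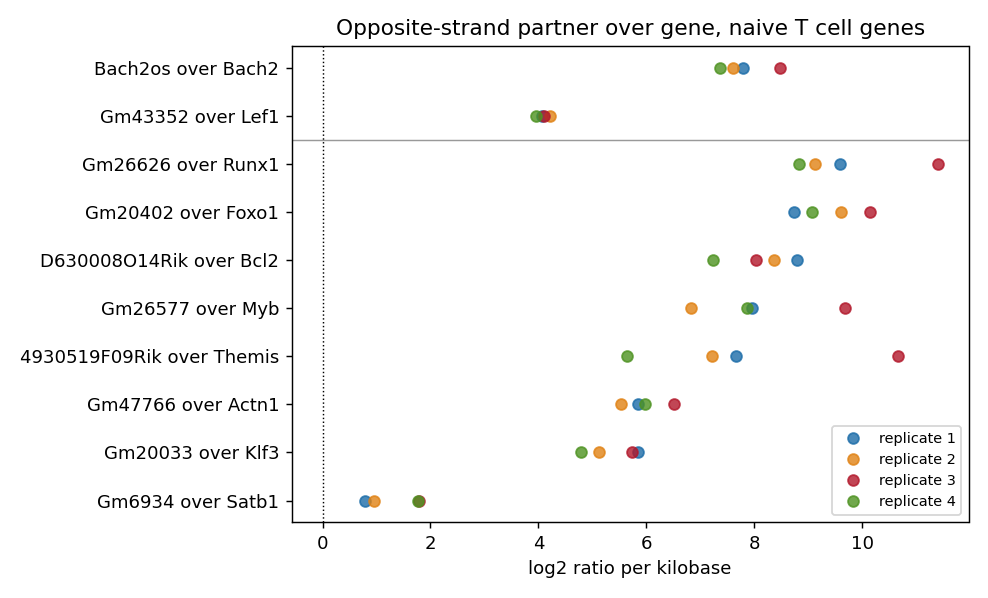
Log2 ratio per kilobase of the opposite-strand partner over the gene in replicates 1 to 4 (points) for the pairs of Bach2 and Lef1 (above the line) and for the 8 naive list genes with an opposite exon. All points lie above 0, from 0.79 for Gm6934 over Satb1 to 11.4 for Gm26626 over Runx1, both in single libraries.

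Among the partners of TCF-1 and LEF-1, 10 of 14 listed genes had counts in all 4 libraries. Aes, a short Groucho-family corepressor gene, was highest at 5.86 ± 2.22 TPM, followed by Tcf7l1, a further TCF gene, at 3.77 ± 0.456 TPM (SD, n = 4). Axin1, of the complex that degrades beta-catenin, was at 2.77 ± 0.82 TPM and Ctnnb1, encoding beta-catenin, at 2.05 ± 0.746 TPM (SD, n = 4). Of the 14 genes, 5 have an opposite exon, Tcf7l1 and Ctnnb1 among them, so this order holds for the counted strand only. Ctnnb1 had 11, 10, 12 and 21 counts in replicates 1 to 4, and Ulk4 opposite it had 3681, 3815, 4655 and 3848. Tcf7l1 had 18, 14, 24 and 20, and Gm15401 opposite it had 6, 14, 19 and 9. Both partners were named after their values were seen. Tcf7l2 had no count. Tcf7 at 27.5 TPM and Lef1 at 8.19 TPM were thus above the other 2 genes of their family on the counted strand.

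Among the 9 genes around BACH2, Maff, a small MAF partner gene, was highest at 21 ± 3.67 TPM and Nfe2l3 and Nfe2 were at 2.86 ± 2.53 and 2.54 ± 1.23 TPM (SD, n = 4). Nfe2l1 was at 1.85 ± 1.3 TPM (SD, n = 4). Bach1, the closest relative of Bach2, had 2, 3, 0 and 3 counts, and Prdm1, a known BACH2 target, had none. Along the CCR7 pathway, the ligand genes Ccl19 and Ccl21a, which stromal cells make, had no count. The receptor kinase genes Grk2 and Grk6 were at 7.23 ± 4.25 and 4.51 ± 2.23 TPM, and the G protein genes Gnai2 and Gnb1 at 6.72 ± 1.82 and 5.43 ± 2.14 TPM (SD, n = 4). Of the 6 genes of these 3 lists in the variation test, 0 passed in edgeR.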

How the data were processed

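Total RNA-seq, per the labels, was made from 4 Th2 samples, 1 library each; the linked protocol document's name speaks of poly(A) RNA. The authors deposited raw read-pair counts per gene from featureCounts 1.4.6-p4 (paired, both ends mapped, strand option 1, exons grouped by gene, GENCODE release M13, mm10), per the file headers. Which aligner was used is not given there or in the labels.

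Symbols came from GENCODE M21 by gene ID (99.6% of 50600). CPM and TPM were computed from the counts and the deposited lengths. Opposite exons were found with bedtools 2.31.1. Pair ratios used count + 0.5 per kilobase, levels log2(TPM + 1), with exact two-sided sign-flip tests over 16 patterns. Variation used edgeR 4.0.16 (intercept only, TMM, filterByExpr, robust, upper tail of the quasi-dispersion over its trended prior, Benjamini-Hochberg at 0.05), tested on simulated data, with limma 3.58.1 as an alternative (R 4.3.3, Python 3.11.15, pandas 2.3.3, scipy 1.17.1). Coding bases and sequences are from GENCODE M21 transcripts, promoter windows from RefSeq (GRCm38.p6), where 4 of 6 members matched.

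Members, lists and tests were chosen with earlier results of these data known. The text names all members, genes with an exon opposite them, list genes that passed the variation test, and the 2 nearest profiles per member. Of the naive, TCF and LEF, BACH2 and CCR7 lists it names the up to 4 highest members. Cell type markers were not named by that rule. Since nothing shows that samples came from separate animals, each p-value reflects only how these libraries spread, possibly for technical reasons.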

Additional observations from a re-analysis of the deposited data

Results flagged for a closer look

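Of 41 values checked for a library far from the others, 7 passed Dixon's 95% critical value for 4 samples, where the gap of the extreme library to its nearest neighbour is divided by the whole range. Chance flags about 1 in 20 such groups, and these values share libraries. Among the 6 genes, Ccr7 was flagged at 0.876, with replicate 3 at 5.85 CPM and the others between 15.2 and 16.6 CPM. Replicate 3 was also the low library for Trac, at 0.859 with 10 TPM there and 25 to 27.5 TPM elsewhere, and for Csf1r, at 0.964 with 133 TPM there and 162 to 163 TPM elsewhere. Replicate 4 was the low library for Cd79a, at 0.849 with 4.82 TPM, and the high one for Ctnnb1, at 0.833 with 3.15 TPM. Replicate 2 was the low library for Tcf7l1, at 0.836 with 3.1 TPM. Flt3 reached 1.0 through a single count, in replicate 4.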

How the results depend on the processing

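No paired analysis was possible because the 4 libraries form 1 group. The 56 alternative values of the pair ratios, their difference and the order of the 6 genes (added count, length scaling, TPM scale and base, pseudocount, each replicate left out) kept their direction. Without each replicate in turn, the log2 ratio ran from 7.59 to 7.96 for Bach2os over Bach2 and from 4.05 to 4.13 for Gm43352 over Lef1. With the strand turned, chosen after seeing the data, the signs were reversed: -3.44 for Bach2os over Bach2, -1.05 for Gm43352 over Lef1, -2.39 for their difference and -1.93 for the median of all pairs, with the pairs above 35.3 and 59.1% of all pairs. The number of genes called variable, 22, was 2 with library totals only, 9 with a prior that is not robust, 1 with limma, 56 with no filter on low counts and 11 to 21 with a replicate left out, the lowest without replicate 4; the cause was not tested. It was 22 with DESeq2 size factors, that is, the relative log expression factors of edgeR. The adjusted p of the 6 genes lay between 0.786 and 0.999 over these settings, with no value for Ccr7 without replicate 4, where it missed the filter on low counts. With all pairs of any count, chosen after seeing the data, the median ratio of noncoding over protein-coding genes was 4.90 and Gm43352 over Lef1 was above 43.6% of pairs. Depth limits Ccr7 most, which had 98 counts in all.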

Other observations

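Nfe2l3 and Nfe2, the genes of 2 leucine zipper factors related to BACH2, were high in replicate 3, where Bach2, Lef1, Tcf7 and Ccr7 were lowest in CPM. Both were chosen after their values were seen. In the same list Maff, Nfe2l2, Mafk and Bach1 were lowest in CPM in replicate 3, and Nfe2l1 and Mafg in replicate 2. Per 100000 counts of protein-coding nuclear genes with no gene opposite, Lef1 was highest in replicate 3, at 92. Nfe2l3 had 4, 11, 28 and 3 counts in replicates 1 to 4, and Nfe2 had 6, 9, 19 and 6. Neither gene has an exon opposite, and neither passed the minimum counts of the variation test, so the difference was not tested.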
